A study of Mus musculus with 8 samples.

Results

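The 10 genes described here encode the contractile apparatus of smooth muscle: the actins Acta2 and Actg2, the myosin heavy chain Myh11, the light chain Myl9, the kinase Mylk, the actin-binding proteins Cnn1, Cnn2, Tagln and Lmod1, and the intermediate filament protein Des. They were taken by gene symbol, 10 entries of the 39009 in each of the 8 gene tables, and all 10 were found. The series measured RNA in mouse chemically induced pluripotent stem cells (CiPSC, somatic cells reprogrammed with small molecules), their cells of origin and R1 embryonic stem cells. Neural stem cells (NSC), epithelial cells of the small intestine (IEC) and embryonic stem cells (ESC) gave 1 library each. Of the CiPSC lines 3 were of neural origin (called NSC-CiPSC lines 1, 2 and 3) and 2 of intestinal origin (called IEC-CiPSC lines 10 and 13). NSC (passage 2) and IEC (primary cells) came from E13.5 embryos. The strain label of NSC, IEC and all CiPSC lines is a cross of C57BL/6J-Tg(GOFGFP)11Imeg/Rbrc with ICR, in which the number before Imeg runs from 11 (NSC) to 17 (IEC-CiPSC line 13), and that of ESC is 129X1 x 129S1. The labels name no compounds and no doses, do not say how many embryos were pooled, and do not say whether the lines of 1 origin came from separate animals, so each p-value reflects only how far these lines differ, which may be technical.

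In smooth muscle, myosin filaments pull on actin filaments once myosin light chain kinase, switched on by calcium and calmodulin, has phosphorylated the regulatory light chain. Calponin, transgelin and leiomodin bind actin and regulate or build the thin filament, and desmin links the filaments mechanically. Most genes of this program are controlled by serum response factor (Srf), which binds a short DNA element called the CArG box, and by its coactivator myocardin (Myocd). In the intestine the program marks the muscle coat and the muscle cells of the mucosa, which lie outside the epithelium. Acta2 and Tagln are also made by activated fibroblasts, Des is shared with skeletal and cardiac muscle, and Cnn2 is made by many cell types other than muscle.

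The CArG box was looked for on both strands of the RefSeq promoter windows (GRCm38.p6, 250 bases before to 50 after a gene's start), which held 7 of the 10 genes. An exact match lay in 2 of these 7 windows, Cnn2 and Myl9, against 1.63% of all 32851 promoter windows. With 1 mismatch allowed a match lay in 4 of the 7, with Acta2 and Lmod1 added, against 21.1% of all windows. The windows of Cnn1, Des and Mylk held none, and sequence outside the windows was not searched. Actg2, Myh11 and Tagln had no window. The 3 matches below are shown because Cnn2 and Myl9, both with an exact match, differed in their mean IEC-CiPSC level relative to IEC (7.46% and 0.561% of it). Capitals mark the matched bases, on the strand of the gene, and the last line is the match of Myl9 with 1 mismatch.
Cnn2, chr10:79988524-79988573, 56 bases before the start: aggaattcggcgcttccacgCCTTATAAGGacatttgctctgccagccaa
Myl9, chr2:156775283-156775332, 161 bases before the start: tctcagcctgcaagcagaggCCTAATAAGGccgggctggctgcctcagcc
Myl9, chr2:156775345-156775394, 99 bases before the start: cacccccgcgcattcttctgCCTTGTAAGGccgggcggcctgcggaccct
A match describes the letters of the window and was not tested for binding.

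All levels are FPKM (a fragment count divided by transcript length and by the mapped fragments of the library), a unit that corrects for length, so that genes can be compared with each other. A gene was called different when its adjusted p in limma was under 0.05 and the difference of log2(FPKM + 1) was at least 2-fold. NSC, IEC and ESC have 1 library each, and the model assumed that they vary like the CiPSC lines. The 8 FPKM sums ran from 661114 to 771389, and mitochondrial transcripts held between 1.94% (NSC-CiPSC line 2) and 11.6% (NSC) of the sum. The tables give no read totals, and the interval printed beside each level in the tables covers counting within 1 library only.

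Each of the 10 genes had its highest level in IEC, above every one of the other 7 libraries, a pattern shown by 27.4% of the 17011 genes tested. Summed over the 10 genes, IEC reached FPKM 5452, or 0.825% of its FPKM sum. The sum was 82.0 and 95.3 in the IEC-CiPSC lines, 82.4 to 134 in the NSC-CiPSC lines, 24.2 in ESC and 20.7 in NSC. Acta2, Myl9, Tagln and Actg2 ranked 46, 84, 96 and 124 by level in IEC, and Lmod1, the lowest of the 10, ranked 2640. In such bulk libraries fewer cells of a type and less RNA per cell cannot be told apart.

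**Figure D1:**
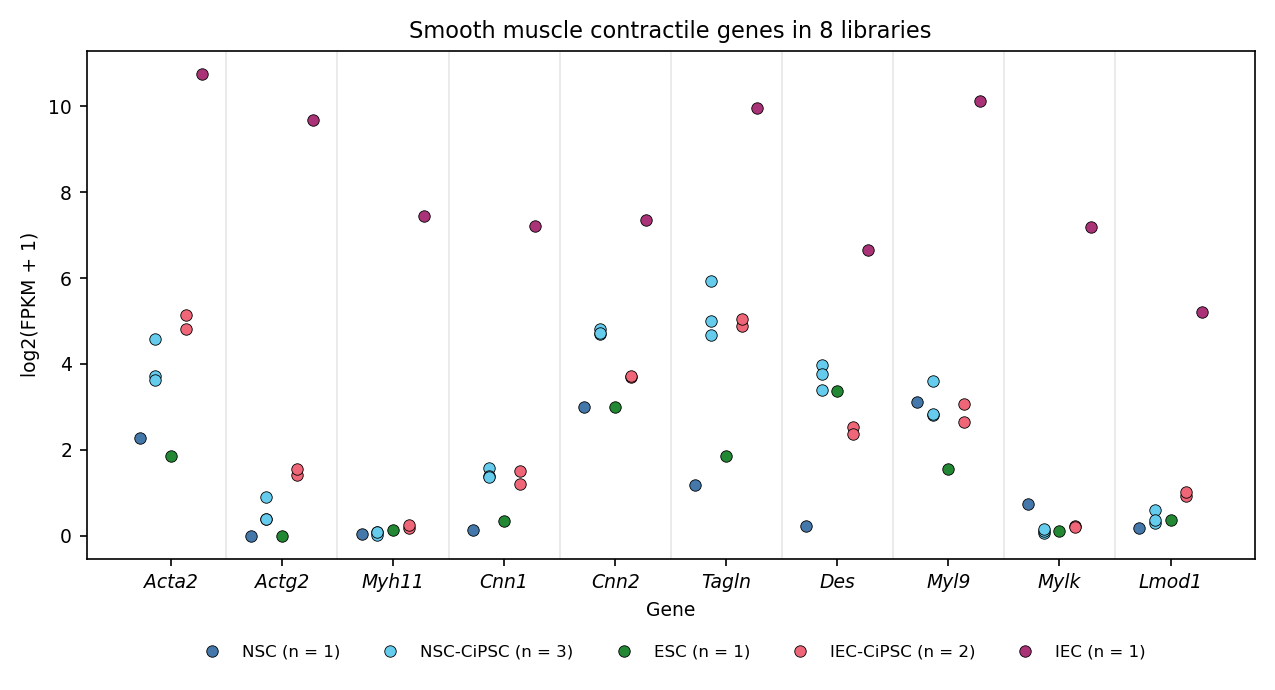
Level of each gene, as log2(FPKM + 1), in the 8 libraries; each point is 1 library, coloured by group. The IEC point lies above all others for each of the 10 genes, and the distance is smallest for Cnn2 (162 against at most 27.1).

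The label of IEC is epithelial, while its RNA carried the markers of several other cell types. Of 12 fibroblast and mesenchyme markers all 12 had FPKM of at least 10 in IEC, and their summed level was 7499 against 73.1 to 237 in the other libraries. Leukocyte markers summed to 3981 in IEC against at most 115 elsewhere, and pericyte markers to 279 against at most 83.0. Cardiac muscle markers summed to 159 in IEC against at most 31.8 elsewhere, with 1 of 12 at FPKM 10 or more in IEC. By summed level the endothelial, Cajal cell and enteric lists below were not highest in IEC. Endothelial markers summed to 14.7 in IEC, 2.92 in NSC and 57.7 to 87.5 in the pluripotent libraries. Markers of interstitial cells of Cajal summed to 21.6 in IEC and 25.1 to 55.4 elsewhere. Their median was highest in IEC, 4.88 against 0.184 to 1.84 elsewhere. In IEC 4 of the 5 reached FPKM 1, against 2 or 3 in each other library. Of the 4 tested, 2 were called higher and 1 lower in IEC against the mean of the 4 other groups. Those of enteric neurons and glia summed to 105 in IEC, 508 in NSC and 92.7 to 138 in the pluripotent libraries. The 12 intestinal epithelial markers were highest in IEC by sum, at 277, against 154 to 258 in the pluripotent libraries and 1.96 in NSC. In IEC 10 of 12 were at FPKM 1 or more. The part of these other cell types in the levels of the 10 genes was not tested.

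Acta2, smooth muscle alpha-actin (chromosome 19, 34241090 to 34255336, minus strand, mm10), was at FPKM 1734 in IEC, 27.2 and 34.3 in IEC-CiPSC lines 10 and 13, 23.0, 12.2 and 11.3 in NSC-CiPSC lines 1, 2 and 3, 3.80 in NSC and 2.60 in ESC. Both IEC-CiPSC lines lay above all NSC-CiPSC lines, and all 5 lines lay above NSC and ESC. Actg2, the enteric gamma-actin of gut muscle (chromosome 6, 83512905 to 83536265, minus strand), was at 823 in IEC, 1.67 and 1.91 in the IEC-CiPSC lines, 0.875, 0.302 and 0.299 in the NSC-CiPSC lines, and was listed at 0 in NSC and ESC. The 2 actins had the same order of libraries wherever Actg2 was above 0, and outside IEC Actg2 stayed under FPKM 2 while Acta2 reached 34.3. Read as counting error, the printed intervals correspond to at most 14 fragments of Actg2 in any library outside IEC. In NSC-CiPSC lines 2 and 3 they correspond to 1 fragment each, so the order of Actg2 rests on very few reads.

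The coding sequences of the 2 actins were identical at 84.4% of aligned bases, and Acta2 was identical to the beta-actin gene Actb at 83.3%. Of 50-base windows of the Acta2 transcript, 0.352% also occurred in another gene, and none of the windows of Actg2 did. The first 90 coding bases (GENCODE M21) are shown because they tell how far reads of the 2 genes can be told apart. Capitals mark bases that differ in the alignment, including 3 bases of Acta2 that have no partner in Actg2.
Acta2: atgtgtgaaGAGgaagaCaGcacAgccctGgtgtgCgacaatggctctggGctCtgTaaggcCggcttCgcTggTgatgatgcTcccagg
Actg2: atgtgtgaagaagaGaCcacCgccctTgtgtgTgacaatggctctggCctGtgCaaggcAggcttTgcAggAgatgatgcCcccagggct

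Among the actin genes measured, Acta2 and Actg2 together made up 51.9% of the actin FPKM in IEC, and the cytoplasmic actins Actb and Actg1 held nearly all of the rest. In the other 7 libraries the share of the 2 smooth muscle actins lay between 0.128% (ESC) and 1.62% (IEC-CiPSC line 13). The levels of Actb differed less, from 1298 in NSC to 2389 in NSC-CiPSC line 1, with 1605 in IEC. Acta1, the skeletal actin, was not analysed here.

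Outside IEC the myosin heavy chain gene Myh11 and the kinase gene Mylk stayed under FPKM 1, while the light chain gene Myl9 did not. Myh11, the smooth muscle myosin heavy chain (chromosome 16, 14194527 to 14291408, minus strand), was at 172 in IEC, 0.131 and 0.188 in IEC-CiPSC lines 10 and 13, 0.0601, 0.0166 and 0.0590 in NSC-CiPSC lines 1, 2 and 3, 0.0315 in NSC and 0.0905 in ESC. Read as counting error, the intervals in the tables correspond to between 1 and 13 fragments of Myh11 in each library other than IEC, so differences among these libraries rest on very few reads. Mylk, the kinase that switches on contraction (chromosome 16, 34745210 to 35002420, plus strand), was at 146 in IEC, 0.662 in NSC, 0.160 and 0.147 in the IEC-CiPSC lines, 0.0507, 0.0702 and 0.116 in the NSC-CiPSC lines and 0.0847 in ESC. NSC was thus second for Mylk, above all 6 pluripotent libraries. Of the exon bases of Mylk 4.87% overlap E130310I04Rik and 1.99% overlap Gm21691, both on the opposite strand. Of its 50-base windows 4.28% occur in another gene. Whether reads of these genes entered the level of Mylk was not tested. Myh11 and Mylk reached FPKM 1 in IEC only and so entered the test through IEC alone, while the other 8 genes reached it in at least 1 other library.

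Myl9, the regulatory light chain that Mylk phosphorylates (chromosome 2, 156775420 to 156781658, plus strand), was at 1125 in IEC, 7.62 in NSC, 11.2, 6.07 and 6.10 in NSC-CiPSC lines 1, 2 and 3, 5.30 and 7.33 in IEC-CiPSC lines 10 and 13, and 1.91 in ESC. The NSC value lay inside the range of the CiPSC lines, and the ranges of the 2 kinds of line overlapped. Its relatives Myl12a and Myl12b, light chains of non-muscle cells, were at 266 and 123 in IEC. Myl9 made up 74.3% of the summed level of these 3 light chains in IEC and 0.755% (ESC) to 4.17% (NSC) elsewhere. Myh11 likewise made up 56.6% of the summed level of Myh9, Myh10, Myh11 and Myh14 in IEC and at most 0.246% in any other library.

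The actin-binding genes differed from each other in their level in the pluripotent libraries. Cnn1, smooth muscle calponin (chromosome 9, 22099281 to 22109630, plus strand), was at 148 in IEC, 1.97, 1.64 and 1.58 in NSC-CiPSC lines 1, 2 and 3, 1.30 and 1.86 in IEC-CiPSC lines 10 and 13, 0.270 in ESC and 0.0938 in NSC. The lines of the 2 origins overlapped for Cnn1, and all 5 lay above ESC and NSC. Cnn2, the calponin found widely outside muscle (chromosome 10, 79988584 to 79996062, plus strand), was at 162 in IEC, 27.1, 25.2 and 25.6 in the NSC-CiPSC lines, 11.9 and 12.3 in the IEC-CiPSC lines, 6.99 in ESC and 6.95 in NSC. The 3 groups NSC-CiPSC, IEC-CiPSC and ESC did not overlap for Cnn2. Cnn1 and Cnn2 made up 65.1% of the calponin FPKM in IEC and 3.44% (ESC) to 10.6% (NSC-CiPSC line 1) elsewhere, where Cnn3, the third calponin, held the rest.

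Tagln, transgelin (chromosome 9, 45929628 to 45936058, minus strand), was at 1006 in IEC, 60.4, 31.1 and 24.5 in NSC-CiPSC lines 1, 2 and 3, 28.6 and 32.1 in IEC-CiPSC lines 10 and 13, 2.62 in ESC and 1.25 in NSC. All 5 CiPSC lines lay above ESC and NSC, and NSC-CiPSC line 1 stood above the other 4. Tagln held 93.9% of the FPKM of the transgelin family in IEC, 53.2% in NSC-CiPSC line 1 and 15.5% to 22.8% in the other 4 lines, against 1.81% in ESC, where Tagln2 held most. Of the exon bases of Tagln 62.4% overlap Gm48529, a gene on the opposite strand, and 5.43% overlap Pcsk7, also on the opposite strand, and 48.3% of its 50-base windows occur in another gene. Whether the authors counted by strand is not given in the sources used here, and without strand the reads of such genes cannot be told apart. Lmod1, leiomodin, which seeds actin filaments (chromosome 1, 135324807 to 135368065, plus strand), was at 36.1 in IEC, 0.901 and 1.02 in the IEC-CiPSC lines, 0.232, 0.515 and 0.279 in the NSC-CiPSC lines, 0.285 in ESC and 0.135 in NSC. Both IEC-CiPSC lines lay above all NSC-CiPSC lines and ESC for Lmod1, at levels near FPKM 1.

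Des, desmin (chromosome 1, 75360329 to 75368579, plus strand), was at 99.6 in IEC, 9.46, 14.8 and 12.6 in NSC-CiPSC lines 1, 2 and 3, 9.36 in ESC, 4.79 and 4.17 in IEC-CiPSC lines 10 and 13, and 0.167 in NSC. It was the only 1 of the 10 genes for which ESC lay above both IEC-CiPSC lines while all 3 NSC-CiPSC lines lay above ESC. The intervals in the tables were 2.78 to 5.56 for IEC-CiPSC line 13, 6.92 to 11.8 for ESC and 6.88 to 12.0 for NSC-CiPSC line 1, so the difference between NSC-CiPSC line 1 and ESC was within counting error. Against vimentin (Vim), the intermediate filament protein of mesenchymal and neural stem cells, Des held 13.2% of the sum of the 2 in IEC, 0.0202% in NSC and 4.10% to 16.8% in the pluripotent libraries. Of the exon bases of Des 5.86% overlap the antisense gene Gm15179, which was listed at 0 in all 8 libraries.

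**Figure D2:**
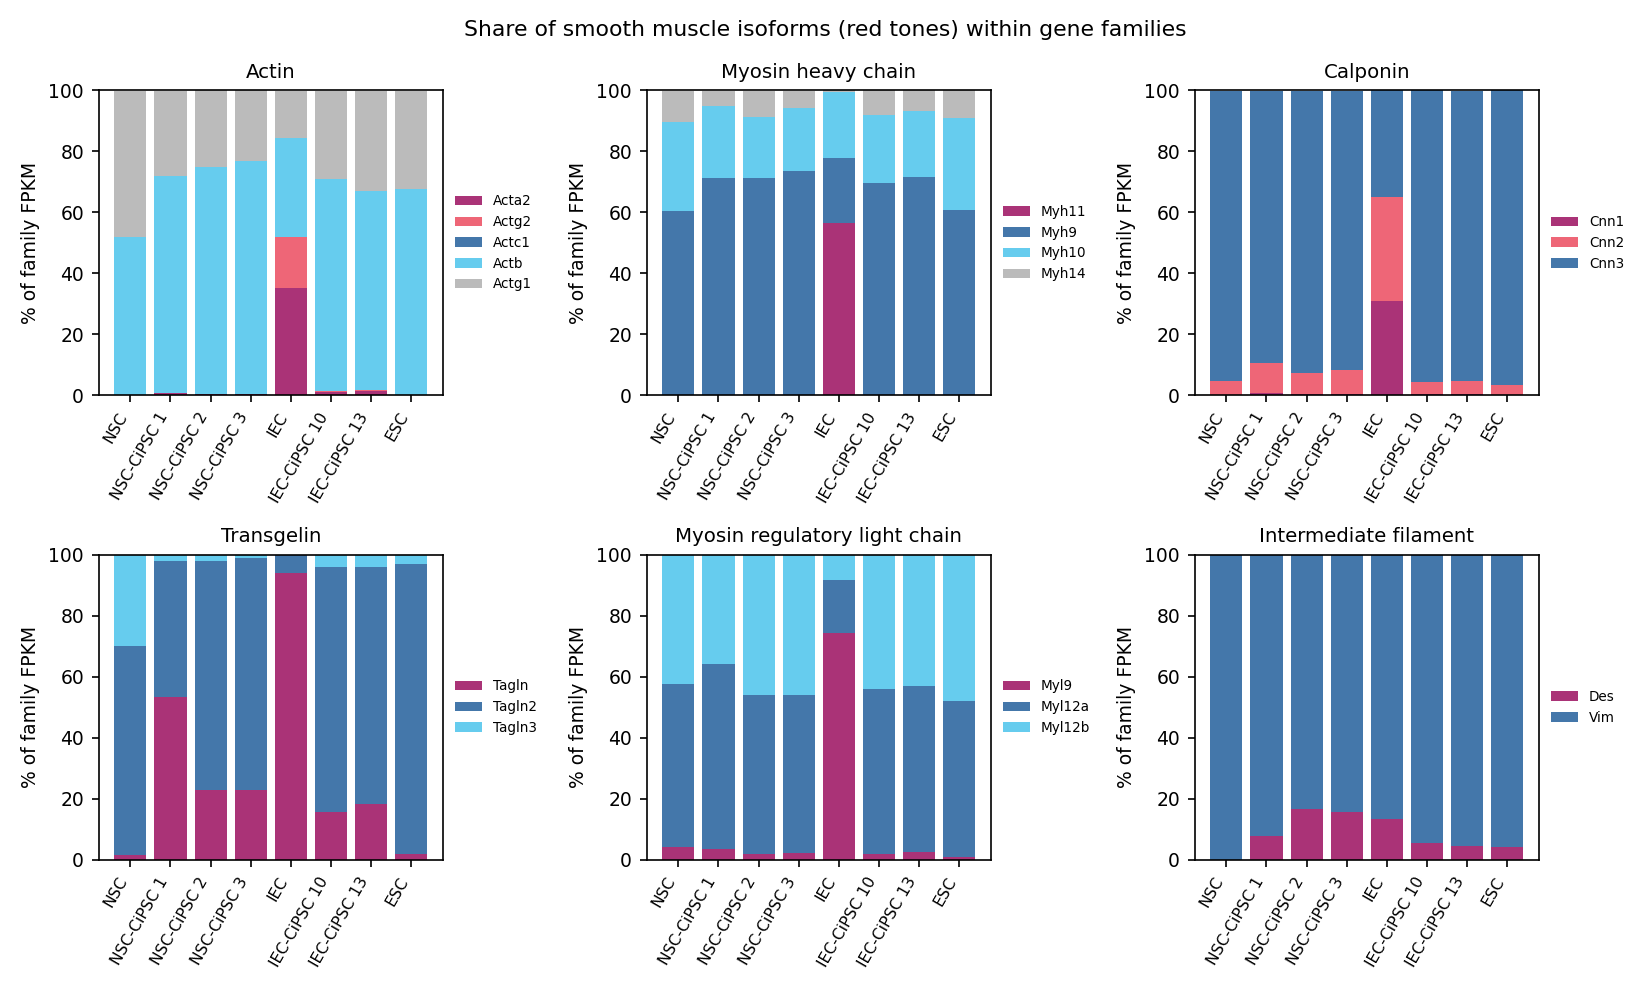
Share of FPKM held by each gene of 6 families in each of the 8 libraries, as stacked bars that sum to 100%; red tones are the smooth muscle genes. In IEC they hold 51.9% of actin, 56.6% of myosin heavy chain and 74.3% of regulatory light chain FPKM, and Tagln holds 53.2% of its family in NSC-CiPSC line 1.

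IEC was set against the mean of the 4 other groups on the log2 scale to see how far it stood apart. Each of the 10 genes was higher in IEC and called, where 23.2% of all genes tested were called higher, with a median difference of 6.79 over the 10 against -0.05 over all genes. The difference ran from 3.73 ± 0.07 (SE) for Cnn2 to 9.18 ± 0.25 for Actg2 (limma adjusted p = 1.58e-05 and 4.60e-05). The genes and this comparison were chosen with the high IEC levels known, so these values describe IEC and do not test the choice.

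From IEC to IEC-CiPSC the question is how far the levels of this program differed between the source library and the lines. A fall here means a lower level in the lines than in the IEC library. That library carried markers of several cell types, and whether the lines arose from cells with these transcripts was not tested. Each of the 10 genes fell (26.2% of all genes tested were called lower), with a median log2 difference of -5.82 against -0.03 over all genes. The genes were chosen with their high IEC level known, and Myh11 and Mylk were tested through IEC alone, so the counts and p-values of this fall are a description and do not test the choice. On the linear scale the mean level of the lines was 0.0926% of the IEC level for Myh11, 0.105% for Mylk, 0.218% for Actg2 and 0.561% for Myl9. It was 1.07% for Cnn1, 1.77% for Acta2, 2.66% for Lmod1, 3.02% for Tagln, 4.50% for Des and 7.46% for Cnn2. Whether any of this level was carried over from IEC was not tested. The motor, its kinase and the gut actin were thus the lowest relative to IEC, and desmin and the widely expressed calponin the highest. Mean levels in IEC-CiPSC were 30.7 ± 5.05 (SD, n = 2) for Acta2, 30.4 ± 2.48 for Tagln, 12.1 ± 0.256 for Cnn2, 6.32 ± 1.43 for Myl9 and 4.48 ± 0.440 for Des.

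In limma the fall was -5.78 ± 0.48 (SE) for Acta2, -5.01 ± 0.57 for Tagln, -7.28 ± 0.43 for Myl9, -7.00 ± 0.07 for Mylk, -5.86 ± 0.19 for Cnn1 and -3.64 ± 0.08 for Cnn2, with adjusted p of 0.00116, 0.00289, 0.000451, 2.40e-06, 8.40e-05 and 2.66e-05. Des fell by 4.20 ± 0.28 and Lmod1 by 4.24 ± 0.15 on the same scale (limma adjusted p = 0.000647 and 0.000108). Because 1 is added to each level, the log2 difference understates the change of Myh11, Mylk, Actg2 and Lmod1. The percent of the IEC level was computed without that addition. Other scalings moved the median of all genes from -0.03 to 0.15 (quantile normalization) or -0.15 (median-of-ratios scaling), and the fall of each of the 10 was far larger than that shift.

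**Figure D3:**
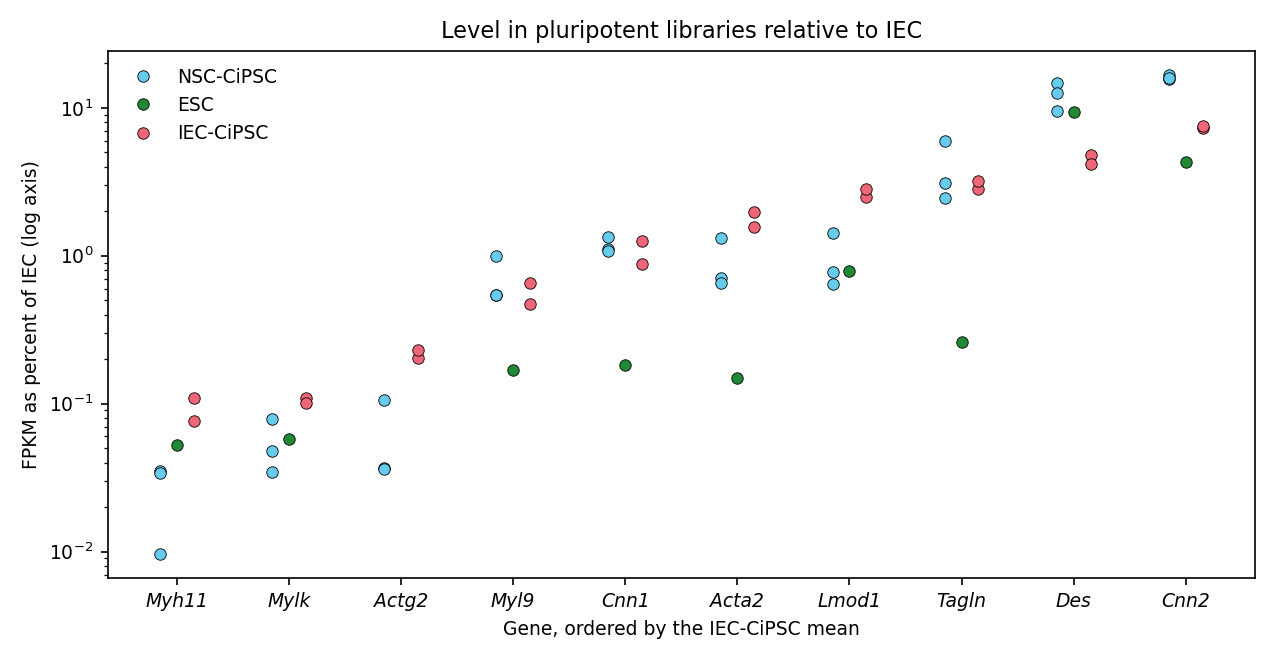
Level in each pluripotent library as percent of the IEC level, on a log axis, with genes ordered by the IEC-CiPSC mean; each point is 1 library, and Actg2 in ESC is listed at 0 and not drawn. The IEC-CiPSC means run from 0.0926% (Myh11) to 7.46% (Cnn2), and for Des and Cnn2 the NSC-CiPSC lines lie above the IEC-CiPSC lines.

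Other genes of the contractile machinery fell along the same route, though not all of them. Of all genes tested 26.2% were called lower and 19.1% higher. Of 20 partner and cytoskeleton genes all 20 were called lower, with a median of -2.57. They included Tgfb1i1, a focal adhesion protein (-6.17 ± 0.20, limma adjusted p = 7.39e-05), Cav1 of the caveolae (-6.02 ± 0.25, 0.000171), Pdlim3 (-5.48 ± 0.26, 0.00024), the muscle tropomyosin Tpm2 (-5.24 ± 0.21, 0.00016) and the actin-bundling Synpo2 (-4.83 ± 0.14, 5.72e-05). Of 20 genes for the signals that start or stop contraction, 11 were called lower, 0 higher and 9 not called. Of these 20, Chrm2, Kcnmb1 and Ryr2 reached FPKM 1 in IEC only, and 2 of these 3 are among the 11. The acetylcholine receptor Chrm2, which was at 49.4 in IEC and listed at 0 in all 6 pluripotent libraries, and Rgs2, a brake on such receptors (-5.04 ± 0.16), had the largest differences. Guanylate cyclase subunits Gucy1b3 and Gucy1a3 and the kinase Prkg1, which relax smooth muscle in response to nitric oxide, had log2 differences of -4.36, -4.06 and -4.38, all called.

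Of the 20 transcriptional regulators 17 were tested, and 12 were called lower, 1 higher and 4 not called. Among all genes tested 26.2% were called lower and 19.1% higher. Of the 12 called lower 8, Myocd and Tcf21 among them, reached FPKM 1 in IEC only and so were tested through IEC alone, and this count is a description. Myocd reached 9.18 in IEC, whereas its next highest level was 0.0646, in NSC-CiPSC line 2, a log2 difference of -3.32 ± 0.06. Srf, its partner, was at 22.8 in IEC, 11.6 and 12.9 in IEC-CiPSC, 11.4 to 13.7 in NSC-CiPSC, 10.4 in ESC and 7.24 in NSC, and was not called (-0.85 ± 0.16, adjusted p = 0.0117 in limma, under 2-fold). Outside IEC the level of the cofactor gene was near 0, and that of the DNA-binding factor was not. Barx1, of the stomach and gut mesenchyme, was at 167 in IEC and at most 1.28 elsewhere, and Tcf21, of visceral mesenchyme, was at 57.0 in IEC and listed at 0 in all other libraries. Elk1, which competes with Myocd for Srf, rose by 1.08 ± 0.16 (limma adjusted p = 0.00647), from 8.32 in IEC to 19.1 and 18.3 in the 2 lines.

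Relatives of the 10 genes outside smooth muscle were looked at on the same route. Of 18 such genes 12 were tested, and 2 were called lower in IEC-CiPSC than in IEC (Myh10 and Vim, -1.86 and -2.92), 1 higher (Tagln3, 2.47) and 9 not called, where 26.2% of all genes tested were called lower and 19.1% higher, with a median of -0.15. Actb and Myh9 differed by -0.13 ± 0.16 and -0.20 ± 0.25 (limma adjusted p = 0.522 and 0.523). Lmod2, Lmod3 and Mylk4, the leiomodins and a myosin kinase of other muscle, had at most 0.0533 in any library. The fibroblast and leukocyte markers were lower in IEC-CiPSC too, 12 of 12 and 10 of 10 called, and so were 7 of 9 pericyte markers tested. Of these, 2 fibroblast, 7 leukocyte and 3 pericyte markers reached FPKM 1 in IEC only. Their part in the fall of the contractile genes was not tested.

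From NSC to NSC-CiPSC the neural route took a different course. Of the 10 genes 5 rose and 0 were called lower (18.3% of all genes tested were called higher) (20.7% were), with a median of 0.94 against 0.026 over all genes. In 7 of the 10 genes (Acta2, Actg2, Cnn1, Cnn2, Tagln, Des and Lmod1) every NSC-CiPSC line lay above NSC, as in 42.4% of all genes tested. Mylk was lower in all 3 lines than in NSC, with a limma adjusted p of 0.00276, but by less than 2-fold (-0.62 ± 0.07). It was called with a pseudocount of 0.1 (-2.11) or 0.5 (-1.01), and Actg2 with 0.1 (2.43). At an unadjusted p under 0.05 there were 5 higher and 1 lower in limma, where 61.9% of all genes tested were under it in either direction.

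Tagln rose by 4.04 ± 0.54 on the log2 scale and Des by 3.49 ± 0.27 (limma adjusted p = 0.00521 and 0.00125). Cnn2 rose by 1.76 ± 0.08 and Cnn1 by 1.32 ± 0.18 (limma adjusted p = 0.000344 and 0.00592), each higher in 3 of 3 lines. In FPKM the NSC-CiPSC means were 38.7 ± 19.1 (SD, n = 3) for Tagln, 12.3 ± 2.67 for Des, 25.9 ± 1.02 for Cnn2 and 1.73 ± 0.210 for Cnn1. Line 1, at 60.4, was the highest of the 3 for Tagln.

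Acta2 rose by 1.71 ± 0.45 (limma adjusted p = 0.0355), with 15.5 ± 6.53 (SD, n = 3) in the lines against 3.80 in NSC. This call was lost when NSC-CiPSC line 2 (adjusted p = 0.0647) or NSC-CiPSC line 3 (0.0541) was left out. The call was also lost without IEC-CiPSC line 10 or 13. These 2 lines are not part of the comparison: the difference stayed at 1.71, and only the estimate of variance changed. Other losses came without a filter on low values (0.0572) and when levels were rescaled without mitochondrial transcripts (1.47, 0.0621). Mitochondrial transcripts held 11.6% of the FPKM sum in NSC and 1.94% to 5.61% in the NSC-CiPSC lines. The remaining genes had differences of 0.56 (Actg2), 0.019 (Myh11), -0.022 (Myl9) and 0.24 (Lmod1) and were not called, and quantile normalization changed the sign of Myh11, Myl9 and Lmod1.

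Related genes on the neural route were called in both directions, at shares near those of all genes for the partners. Of the 20 partner genes 4 were called higher (Actn1 3.58, Tpm2 2.32, Pdlim7 1.64 and Flna 1.55, of which Actn1, Pdlim7 and Flna are named after their values were seen), 6 lower and 10 not called, where 18.3% of all genes were called higher and 20.7% lower. Cav1 and Synpo2 were among those lower (-4.81 and -1.19). Of the 20 signalling genes 8 were called lower and 1 higher, Ppp1r14a (4.91 ± 0.57, limma adjusted p = 0.00355, named after its value was seen), an inhibitor of the phosphatase that relaxes myosin. Ppp1r14a was at 0.318 in NSC, 22.9 to 58.4 in the NSC-CiPSC lines, 32.2 in ESC and 85.4 in IEC. Myocd differed by 0.030 ± 0.053 and Srf by 0.75 ± 0.15 (adjusted p = 0.665 and 0.0154 in limma), and neither was called.

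The changes of the 2 routes were compared directly with a difference of differences in the same model. The change from IEC to IEC-CiPSC was lower than that from NSC to NSC-CiPSC for each of the 10 genes, all called (17.6% of all genes tested were called lower). This difference contains the IEC level known when the genes were chosen, so it too is a description. The difference between routes ran from -4.48 ± 0.21 for Lmod1 to -9.04 ± 0.78 for Tagln (limma adjusted p = 0.000339 and 0.00225), with a median of -7.25 against -0.02 over all genes. Tagln, Des, Acta2, Cnn1 and Cnn2 moved in opposite directions on the 2 routes. The levels the lines reached were closer to each other than the levels they came from: for Acta2 the 2 sources were 1734 and 3.80, and the 5 lines were between 11.3 and 34.3.

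**Figure D4:**
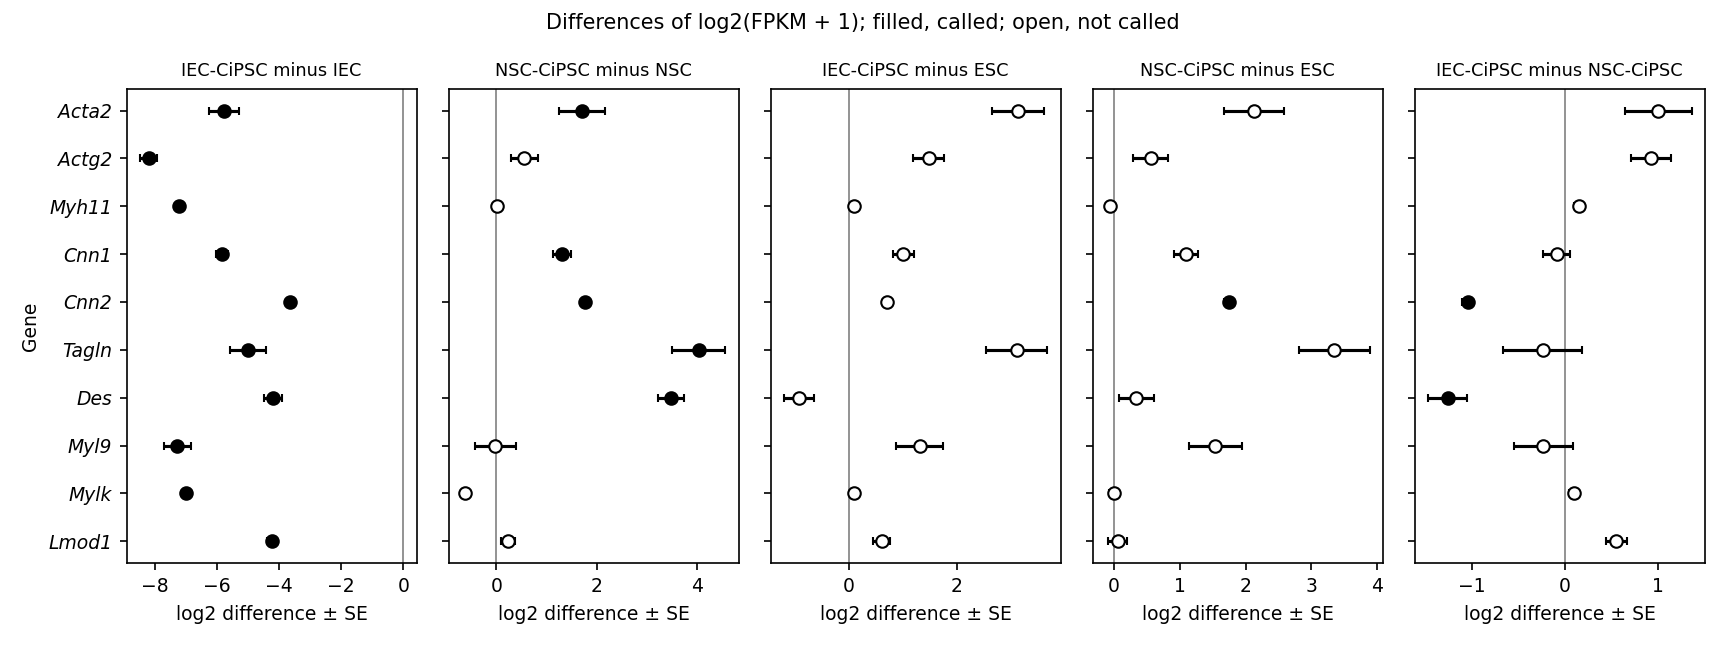
Difference of log2(FPKM + 1) with its standard error for each gene in 5 comparisons, from the model over all 8 libraries; filled points are called at an adjusted p under 0.05 and 2-fold, open points are not, and the horizontal scales differ between panels. All 10 points are filled and below 0 for IEC-CiPSC minus IEC, 5 are filled and above 0 for NSC-CiPSC minus NSC, and Cnn2 and Des are filled for IEC-CiPSC minus NSC-CiPSC.

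ESC served as the pluripotent reference, and it differs from the lines in strain. For 6 of the 10 genes (Acta2, Actg2, Cnn1, Cnn2, Tagln and Myl9) every CiPSC line lay above ESC, a pattern of 20.5% of all genes tested. Tagln was 11.6 times as high in IEC-CiPSC and 14.8 times as high in NSC-CiPSC as in ESC, and Acta2 11.8 and 5.96 times. Both comparisons share the 1 ESC library.

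Despite these sizes, limma called 0 of the 10 genes in IEC-CiPSC against ESC (3.36% of all genes were called in either direction), while 8 of the 10 had an unadjusted p under 0.05, as did 24.1% of all genes. The largest differences were Acta2 at 3.13 ± 0.48 and Tagln at 3.11 ± 0.57 (adjusted p = 0.0513 and 0.0694). Their 95% intervals, 1.81 to 4.45 and 1.55 to 4.68, exclude 0 before adjustment. Cnn2 was above ESC by 0.71 ± 0.08 (limma adjusted p = 0.0310), less than 2-fold. Des was below ESC, at -0.92 ± 0.28 (adjusted p = 0.162). With genes of mean FPKM of at least 1 only, Acta2 was called (adjusted p = 0.0380), and without NSC-CiPSC line 1 Acta2, Actg2 and Tagln were (0.0210, 0.0262 and 0.0215). That line is not part of this comparison: the differences stayed the same, and only the estimate of variance changed.

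In NSC-CiPSC against ESC 1 of the 10 genes was called, Cnn2, higher by 1.75 ± 0.08 (limma adjusted p = 0.00314), where 0.946% of all genes were called higher. Tagln and Acta2 had larger but more variable differences, 3.35 ± 0.54 and 2.13 ± 0.45 (adjusted p = 0.0595 and 0.0960). Without NSC-CiPSC line 1 both were called (2.98 and 1.82, adjusted p = 0.0265 and 0.0382). Des differed from ESC by 0.34 ± 0.27 (adjusted p = 0.545), with a 95% interval from -0.40 to 1.07.

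The regulators Myocd and Srf were not called against ESC. Myocd differed from ESC by 0.028 in IEC-CiPSC and 0.030 in NSC-CiPSC, and Srf by 0.21 and 0.28 in IEC-CiPSC and NSC-CiPSC. Of the 17 regulators tested Elk1 was called, higher in IEC-CiPSC (1.23 ± 0.16, limma adjusted p = 0.0395).

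**Figure D5:**
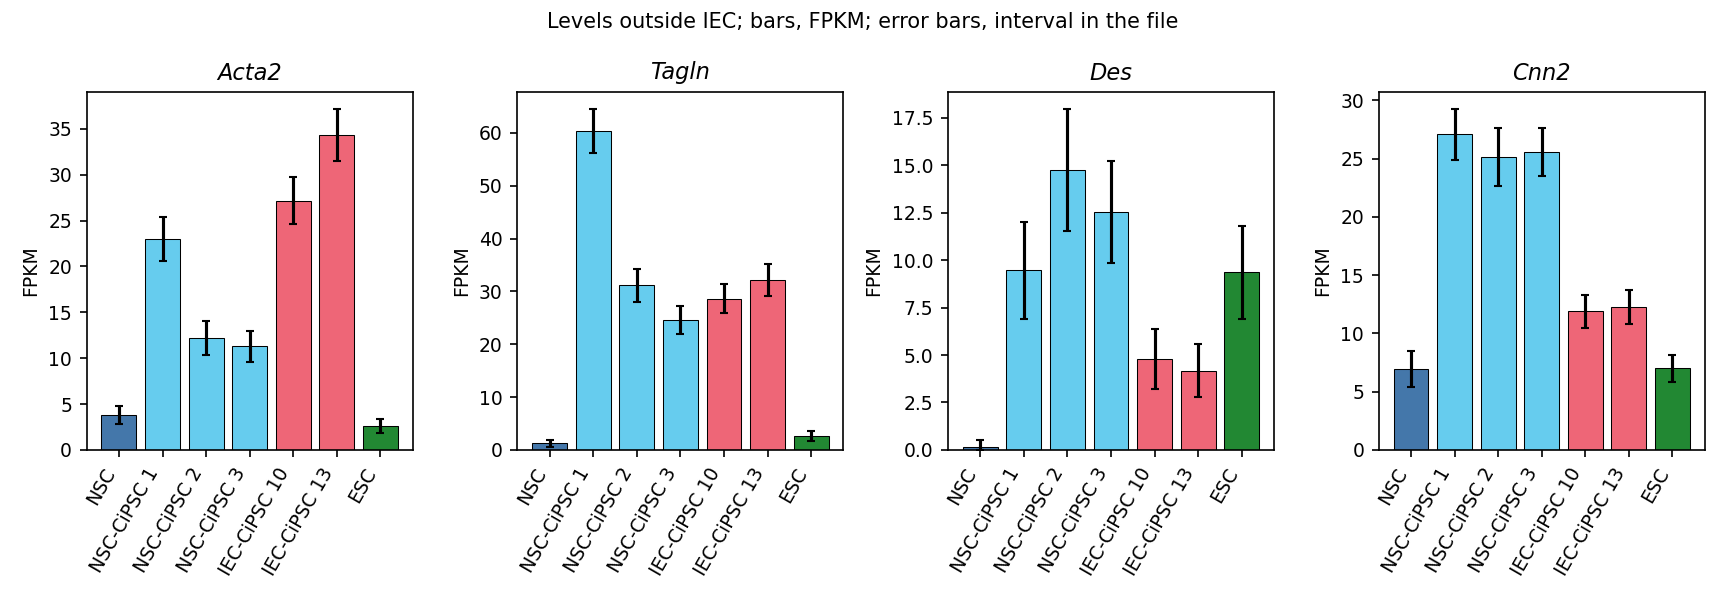
FPKM of Acta2, Tagln, Des and Cnn2 in the 7 libraries other than IEC; bars are single libraries and error bars the intervals printed in the tables, which cover counting only. Acta2 and Tagln are above ESC in all 5 CiPSC lines, and for Des and Cnn2 the NSC-CiPSC bars are above both IEC-CiPSC bars.

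The lines of the 2 origins were compared with each other to see whether their levels followed the source. For 7 of the 10 genes the 2 kinds of line did not overlap, where 47.8% of all genes tested did not. Both IEC-CiPSC lines were above all NSC-CiPSC lines for Acta2, Actg2, Myh11, Mylk and Lmod1 (5 of 10, against 21% of all genes), and below them for Cnn2 and Des (2 of 10, against 26.8%). For each of the first 5 genes the printed intervals, which cover counting only, overlapped between an NSC-CiPSC and an IEC-CiPSC line. For Cnn2 and Des they did not. For Actg2, Myh11 and Mylk the intervals correspond to at most 4 fragments in any NSC-CiPSC line. The median difference of log2(FPKM + 1) over the 10 genes was 0.0046 against -0.027 over all genes. This median mixes differences in both directions, and the added 1 shrinks those of Myh11 and Mylk, so it does not tell whether the group differed by origin.

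Cnn2 and Des were called lower in IEC-CiPSC than in NSC-CiPSC (1.56% of all genes tested were called lower), and 0 of the 10 were called higher (2.76% of all genes were), with 4 higher and 2 lower at an unadjusted p under 0.05 in limma, where 28.8% of all genes were under it in either direction. These 2 genes had been singled out for their level by origin with earlier results known, so the calls are a description. Cnn2 was 2.15 times as high in NSC-CiPSC on the linear scale, a log2 difference of -1.04 ± 0.06 (limma adjusted p = 0.00752). Des was 2.74 times as high in NSC-CiPSC, a difference of -1.26 ± 0.21 (adjusted p = 0.0442). For both genes the source with the higher level, IEC, gave the lines with the lower level: IEC stood 23.3 times above NSC for Cnn2.

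Neither call was stable to leaving out a line. The call of Des was lost without NSC-CiPSC line 2 (adjusted p = 0.0855), NSC-CiPSC line 3 (0.154), IEC-CiPSC line 10 (0.212) or IEC-CiPSC line 13 (0.238), and without a filter on low values (0.0631). The call of Cnn2 was lost without NSC-CiPSC line 3 (0.0597), IEC-CiPSC line 10 (0.0852) or IEC-CiPSC line 13 (0.0847), and its size fell just under 2-fold (-0.98 to -0.99) under the 3 other scalings. The direction of both stayed the same in all 13 settings.

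The other 8 genes were not called between origins. Acta2 was 1.98 times as high in IEC-CiPSC (1.00 ± 0.36, limma adjusted p = 0.168), and Actg2 3.64 times as high at levels under FPKM 2 (0.93 ± 0.21, 0.0776). Without NSC-CiPSC line 1, which had the highest Acta2 of its group, both were called (1.31 and 1.10, adjusted p = 0.0378 and 0.0284). Lmod1 was 2.81 times as high in IEC-CiPSC (0.55 ± 0.11, 0.0635). For Tagln, Cnn1 and Myl9 the 95% intervals of the difference were -1.40 to 0.93, -0.49 to 0.31 and -1.11 to 0.66, and the direction changed when 1 line was left out.

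Some markers of other cell types differed between the origins as well. Of all genes tested 2.76% were called higher in IEC-CiPSC and 1.56% lower. Of the endothelial and pluripotency markers tested, 1 of 7 and 1 of 8 were called higher. Of the intestinal epithelial and neural stem cell markers, 2 of 11 and 1 of 8 were called lower. Of the cardiac muscle, pericyte, leukocyte, Cajal cell and enteric markers tested 0 were called. Of the 12 fibroblast markers 4 were called higher in IEC-CiPSC, named after their values were seen: Col1a1 (2.27 ± 0.24), Col1a2 (2.23 ± 0.17), Postn (1.89 ± 0.24) and Col3a1 (1.66 ± 0.22), with limma adjusted p of 0.0198, 0.0119, 0.0272 and 0.0286. The summed level of the 12 was 135 and 133 in IEC-CiPSC, 73.1 to 116 in NSC-CiPSC and 98.1 in ESC. Cav1 and Tns1 of the partner list and the mesenchymal regulator Prrx1 were higher in IEC-CiPSC too (1.76, 1.71 and 1.06, with Tns1 named after its value was seen). Of the 8 skeletal muscle genes tested 2 were called lower in IEC-CiPSC, as Des was: Tnnc2 (-1.34 ± 0.08) and Actn3 (-1.02 ± 0.10), named after their values were seen, with limma adjusted p of 0.00837 and 0.0187. The defining skeletal regulators Myod1, Myog and Myf5 were at most 0.374 in any library, and Myf5 was listed at 0 in all 8. The part of these genes in the differences of Des, Acta2 and Actg2 was not tested.

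Genes with the most similar profile were found by the smallest root mean square difference of log2(FPKM + 1) over the 8 libraries. For Acta2 these were Tpm2 (0.75), Apoa2 (0.97) and Gpc3 (1.17), so that Tpm2, the muscle tropomyosin, came first of all non-members. Tpm2 was at 775 in IEC, 20.8, 15.5 and 15.2 in NSC-CiPSC, 19.2 and 19.9 in IEC-CiPSC, 8.24 in ESC and 2.60 in NSC. For Des they were Plac8 (0.53), Capg (0.57) and Gm9780 (0.66), and for Cnn2 Cyr61 (0.63), Dpp7 (0.68) and Mcam (0.70). The match of Plac8 to Des was close in the lines, with 11.7, 17.9 and 18.2 in NSC-CiPSC and 4.74 and 7.03 in IEC-CiPSC. Cyr61 was at 36.1, 12.6 and 19.0 in NSC-CiPSC and 21.6 and 20.5 in IEC-CiPSC, so the ranges of the 2 origins overlapped for Cyr61, unlike for Cnn2.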

How the data were processed

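The deposited FPKM values were used as they stand; the submitters' processing notes name TopHat, Cufflinks and the mm10 build. Neither tool versions nor the annotation release or strand setting are given in the sources used here. Total RNA, per the labels' protocols, was isolated with RNeasy Plus Mini and libraries were made with NEBNext Ultra. Genes reaching FPKM 1 in at least 1 library (17011, including all 10 members) were fitted on log2(FPKM + 1) with limma 3.58.1 in R 4.3.3, with 1 mean for each of 5 groups, empirical Bayes with a trend (3 residual degrees of freedom, 1.10 prior) and Benjamini-Hochberg adjustment over all genes tested. The 10 genes, the gene lists, the comparisons and the choice of Des and Cnn2 were made with earlier results of these data known. Named genes are the 10 members, up to 5 called genes of each list by size in IEC-CiPSC against IEC, any regulator or relative, and the 3 nearest profiles of Acta2, Des and Cnn2. Alternatives were pseudocounts of 0.1 and 0.5, 2 filters, 3 scalings, no trend, and leaving out each CiPSC line. The script was tested on simulated data. Promoter windows are RefSeq (GRCm38.p6), and exons and coding sequences are GENCODE M21. Joins ran in pandas 2.3.3 and NumPy 2.4.6 under Python 3.11.15, and plots in matplotlib 3.10.9. Foxf1, Tubb3 and Acta1 were not analysed here.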

Additional observations from a re-analysis of the deposited data

Results flagged for a closer look

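The change along the intestinal route (IEC-CiPSC minus IEC) differed from the change along the neural route (NSC-CiPSC minus NSC) for each of the 10 genes, by a limma test of the difference itself. The difference of log2 changes was -7.49 for Acta2 and -8.76 for Actg2, the actins. Among the myosin genes it was -7.24 for Myh11 and -7.26 for Myl9, and for the kinase gene Mylk it was -6.37. Among the actin-binding genes it was -7.17 for Cnn1, -5.40 for Cnn2, -9.04 for Tagln and -4.48 for Lmod1. For Des it was -7.69. All 10 values rest on the single IEC and NSC libraries. They contain the high IEC level known when the genes were chosen, and Myh11 and Mylk were tested through IEC alone, so they are a description and do not test the choice.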

How the results depend on the processing

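Of 910 values (10 genes, 7 comparisons, 13 settings), 870 kept their direction and their side of the threshold, 13 passed it, 17 lost it and 10 changed sign, all 10 among values that were not called. The fall in IEC-CiPSC, the high level in IEC and the difference between routes kept 10 of 10 calls in each setting. Signs changed with quantile normalization in NSC-CiPSC against NSC (Myh11 -0.19, Myl9 0.19, Lmod1 -0.044). They also changed when 1 line was left out, where the values ranged from -0.28 to 0.11 for Myl9 in the same comparison, from -0.033 to 0.011 for Mylk and from -0.034 to 0.11 for Lmod1 in NSC-CiPSC against ESC, and between origins from -0.50 to 0.13 for Tagln, -0.43 to 0.033 for Myl9 and -0.24 to 0.069 for Cnn1. Members called against ESC numbered 1 in IEC-CiPSC and 2 in NSC-CiPSC at a mean FPKM of at least 1, and 2 in NSC-CiPSC with a pseudocount of 0.1. Between origins 1 was called without a filter, with quantile normalization, with median-of-ratios scaling and when rescaled without mitochondrial transcripts. With 1 line left out, members called ranged from 0 to 3 (IEC-CiPSC against ESC), 1 to 3 (NSC-CiPSC against ESC) and 0 to 4 (between origins). All genes called ranged from 153 to 890, 187 to 720 and 99 to 789 in the same comparisons. Quantile normalization changed genes called higher and lower in IEC-CiPSC against IEC from 3252 and 4462 to 4080 and 3674, in IEC against the rest from 3939 and 2837 to 3278 and 3762, and in the difference between routes from 2202 and 2989 to 2818 and 2552. Rescaling changed them in NSC-CiPSC against NSC from 3112 and 3527 to 2501 and 4283. The cause of these changes was not tested. Few replicates limit all comparisons, and outside IEC low levels limit Myh11 and Mylk (under FPKM 1) and Actg2 and Lmod1 (at most 1.91 and 1.02). No paired analysis was possible because NSC, IEC and ESC have 1 library each and the labels do not link the lines to animals.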
